A study of Drosophila melanogaster with 2 samples.

Results

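The serotonin receptor genes measured in this study were 5-HT1A, 5-HT1B and 5-HT7. They were taken by symbol from the platform annotation, joined to the deposited ratios by spot number, and made up 3 of the 2377 genes with a symbol of their own and 8 of their 5666 spots. The selection rule itself uses the symbols and no measured value. 5-HT1A and 5-HT1B had 1 clone each and 5-HT7 had 2, and every clone was spotted as 2 adjacent spots.

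Serotonin is a biogenic amine that insects use as a neurotransmitter and as a hormone, and flies sense it with receptors of the rhodopsin-like (class A) family of G protein-coupled receptors. In Drosophila, 5-HT1A and 5-HT1B act through inhibitory G proteins and lower cyclic AMP, whereas 5-HT7 raises cyclic AMP. 5-HT1A is known for its part in sleep, 5-HT1B for the entrainment of the circadian clock by light, and 5-HT7 for courtship and mating.

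RNA came from adult females of the Oregon-R wild-type strain, 4 to 10 days old, that were sprayed with a Potter tower, which lets a fine mist fall evenly over the flies, using 2 mL of 99% ethanol or of distilled water. The series text gives 4 h from spray to sampling, the label of replicate 1 gives 6 h, and that of replicate 2 gives no time. Each of 2 spotted arrays compared 1 ethanol extract with 1 water extract, each from about 240 pooled flies. Ethanol RNA carried Cy3 on array 1 and Cy5 on array 2, and water RNA the other dye.

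The deposited value of a spot is a signed log ratio of the 2 extracts, read here as log2, and neither its direction nor its base is given in the sources used here. If each ratio was written by treatment, the values run the same way on both arrays (called "as deposited" below). If each was written as Cy5 over Cy3, array 2 has to be turned in sign ("array 2 turned"). Both codings are given, and no value is assigned to one treatment as the higher. The interquartile range of the named genes was -0.17 to 0.21 on array 1 and -0.17 to 0.18 on array 2. The median difference between the 2 spots of a named clone was 0.169 for array 1 and 0.326 for array 2. The Spearman correlation of duplicate spots was 0.567 on array 1 and 0.103 on array 2, so duplicate spots agreed only weakly on array 2. This limits every array 2 value below. In whole-fly RNA, fewer cells of a type and less RNA per cell cannot be told apart, and a ratio of extracts does not show whether a receptor's signal stood above background.

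None of the 3 receptor genes passed a limma adjusted p of 0.05 between ethanol and water in either coding, and neither did any other gene (0% of 2377 called in each). Before adjustment, 136 genes as deposited (5.72%) and 95 with array 2 turned (4%) had a limma p under 0.05, and 0 receptor genes were among them. Differences between the arrays were larger than the mean ratios of 5-HT1A, 5-HT1B and 5-HT7 as deposited.

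5-HT1A gave the closest spots of the 3 genes. Its spots read 0.45 and 0.35 on array 1 and -0.28 and -0.39 on array 2. All 4 values were of similar size, and the arrays did not overlap. The spots differed by 0.095 on array 1 and 0.116 on array 2, and 70.3% and 81.4% of named clones differed at least as much. The gene value was 0.40 on array 1, a size reached by 17.6% of genes there, and -0.33 on array 2, reached by 21.3%. As deposited, the arrays opposed each other and the mean was 0.03 ± 0.52 (SD, n = 2), with a limma 95% interval from -0.42 to 0.48, or 0.750-fold to 1.40-fold. With array 2 turned they ran together at 0.37 ± 0.05 (SD, n = 2), with an interval from -0.03 to 0.77, or 0.978-fold to 1.70-fold. The limma adjusted p was 0.996 as deposited and 0.942 with array 2 turned.

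5-HT1B, encoded near 5-HT1A with 4 protein-coding genes starting between them in RefSeq (Release 6 assembly, used for gene order only), lay nearer to 0 than 5-HT1A on each single array. Its spots read 0.54 and 0.03 on array 1 and -0.17 and -0.04 on array 2. One spot on each array was therefore close to equality, and the spots on array 1 differed by 0.513, a difference reached by 12.4% of named clones. The gene value was 0.28 on array 1, a size reached by 31.6% of genes, and -0.10 on array 2, reached by 68.3%. The mean was 0.09 ± 0.27 (SD, n = 2) as deposited, with a limma 95% interval from -0.32 to 0.51. With array 2 turned it was 0.19 ± 0.13 (SD, n = 2), with an interval from -0.21 to 0.60. The limma adjusted p was 0.996 and 0.960. In both codings the interval held 0, and it reached 1.42-fold as deposited and 1.51-fold with array 2 turned.

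**Figure D1:**
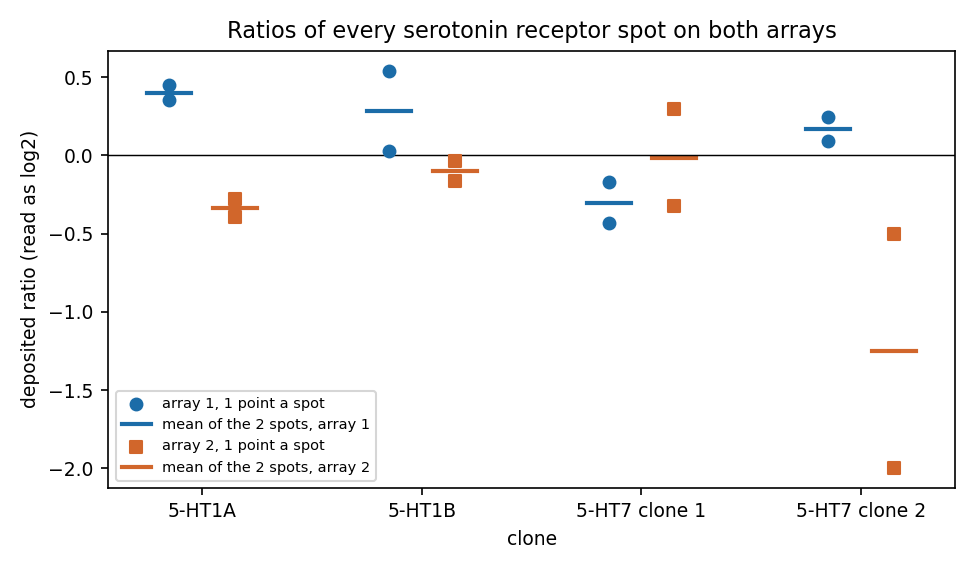
Deposited ratio (read as log2, y axis) of each of the 8 serotonin receptor spots by clone (x axis), with circles for array 1, squares for array 2 and a line at the mean of the 2 spots of a clone on each array. The spots of 5-HT1A, 5-HT1B and 5-HT7 clone 2 lie above 0 on array 1 and below 0 on array 2, and 1 spot of 5-HT7 clone 2 reaches -2.00.

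5-HT7 was the receptor gene with the widest values, and its 2 clones gave different pictures. Clone 1 read -0.17 and -0.43 on array 1 and -0.32 and 0.29 on array 2, so its spots on array 2 fell on either side of 0. Clone 2 read 0.24 and 0.09 on array 1 and -2.00 and -0.50 on array 2. The value of -2.00 stood far from every other receptor spot, and only 0.124% of named spots were as large in size on array 2. Its partner spot differed from it by 1.49, and 1.09% of named clones differed at least as much there.

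The mean of clone 1 was -0.30 on array 1 and -0.02 on array 2, and that of clone 2 was 0.17 and -1.25. The clones differed by 0.470 on array 1 and by 1.23 on array 2. Of 216 genes with 2 clones, 25.9% had clones as far apart on array 1 and 0.926% on array 2, against median differences of 0.274 and 0.226. Averaged over clones, 5-HT7 was at -0.07 on array 1, a size reached by 80.1% of genes, and at -0.63 on array 2, reached by 3.16%. It was the 1 receptor gene that was 1.5-fold or more from equality (0.585 on the log2 scale) on array 2, where 4.75% of genes were, and 0 of the 3 receptor genes were on array 1, where 6.14% of genes were.

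The mean of 5-HT7 was -0.35 ± 0.40 (SD, n = 2) as deposited, with a limma 95% interval from -0.78 to 0.08 (0.582-fold to 1.06-fold) and an adjusted p of 0.983. With array 2 turned it was 0.28 ± 0.50 (SD, n = 2), with an interval from -0.18 to 0.75 and a limma adjusted p of 0.943. The size of this mean rested on clone 2, and within it on 1 spot. Without the spot at -2.00 it was -0.18 ± 0.11 (SD, n = 2) as deposited and 0.08 ± 0.26 with array 2 turned. Clone 2 alone gave -0.54 as deposited (limma adjusted p = 0.869) and 0.71 with array 2 turned (limma adjusted p = 0.940). Clone 1 alone gave -0.16 (limma adjusted p = 0.996) and -0.14 (limma adjusted p = 0.981), so with array 2 turned the clones of 5-HT7 had opposite signs.

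**Figure D2:**
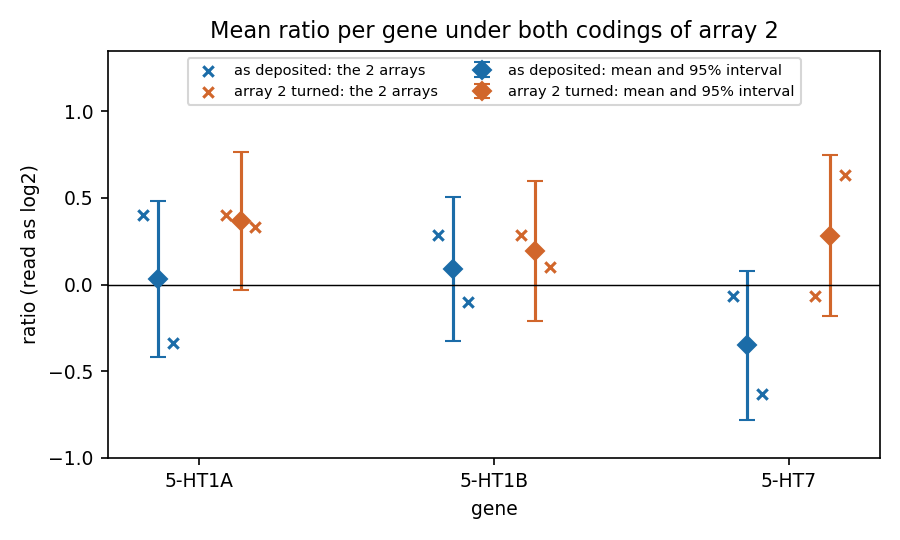
Ratio (read as log2, y axis) of each receptor gene (x axis) with values as deposited (blue) and with array 2 turned in sign (orange), where crosses are the 2 arrays, diamonds their mean and bars the limma 95% interval. All 6 intervals hold 0, and the crosses of 5-HT1A lie 0.73 apart as deposited and close together with array 2 turned.

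When duplicate spots were kept in a fit over all 2833 named clones, the 5-HT1A clone had a mean of 0.37 with array 2 turned and a limma 95% interval from 0.07 to 0.67, which left out 0. Its limma adjusted p over the clones was 0.647, so it was not called. Keeping duplicate spots apart adds spot values but no extracts, and the arrays remain 2. With spots averaged, the limma 95% interval of 5-HT1A in this coding was -0.03 to 0.77, which held 0. In the same coding and with duplicate spots kept, 5-HT7 clone 2 was at 0.71, with an interval from -0.02 to 1.44. Its limma adjusted p was also 0.647. As deposited, the intervals of all 4 receptor clones held 0, with limma adjusted p from 0.774 to 0.977. The consensus correlation of duplicate spots was 0.168 as deposited and 0.142 with array 2 turned.

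The order of the 3 genes changed with the coding. As deposited, 5-HT1B had the highest mean, followed by 5-HT1A and 5-HT7. 5-HT1A minus 5-HT1B was 0.12 on array 1 and -0.23 on array 2, so these neighbours did not differ beyond their spread (-0.06 ± 0.25, SD, n = 2). With all spots averaged, 5-HT7 lay below both genes on each array. 5-HT1A minus 5-HT7 was 0.47 on array 1 and 0.30 on array 2, a mean of 0.38 ± 0.12 (SD, n = 2), and 5-HT1B minus 5-HT7 was 0.35 and 0.53, a mean of 0.44 ± 0.13. Without the 5-HT7 spot at -2.00, 5-HT7 was at -0.26 on array 2, where 5-HT1A minus 5-HT7 turned to -0.08 and 5-HT1B minus 5-HT7 was 0.16. The mean differences as deposited were then 0.22 ± 0.41 and 0.27 ± 0.16 (SD, n = 2). 5-HT7 clone 1, at -0.02, lay above both other genes on array 2. These differences were not tested, and the smallest two-sided p of an exact permutation of signs over 2 arrays is 0.5. In the turned coding 5-HT1A had the highest mean, followed by 5-HT7 and 5-HT1B. 5-HT1A minus 5-HT1B was then 0.12 and 0.23 (0.17 ± 0.08, SD, n = 2), while 5-HT7 differed from 5-HT1A and 5-HT1B by less than the spread between arrays (0.08 ± 0.54 and -0.09 ± 0.63).

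The receptor genes were set against all named genes on both arrays. 5-HT1A and 5-HT1B, 2 of the 3 receptor genes, had opposite deposited signs on the arrays, as did 49.3% of all genes. At a threshold of 0.322 on the log2 scale, 5-HT1A was the 1 receptor gene past it on array 1 (25.7% of genes), and 5-HT1A and 5-HT7 were past it on array 2 (22.7%). 5-HT1A was also past it on both arrays with opposite signs, as were 2.78% of genes. By size of the mean, 5-HT7 ranked 235th of 2377 genes as deposited, 5-HT1B 1492nd and 5-HT1A 2041st. With array 2 turned, 5-HT1A ranked 196th, 5-HT7 413th and 5-HT1B 824th.

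**Figure D3:**
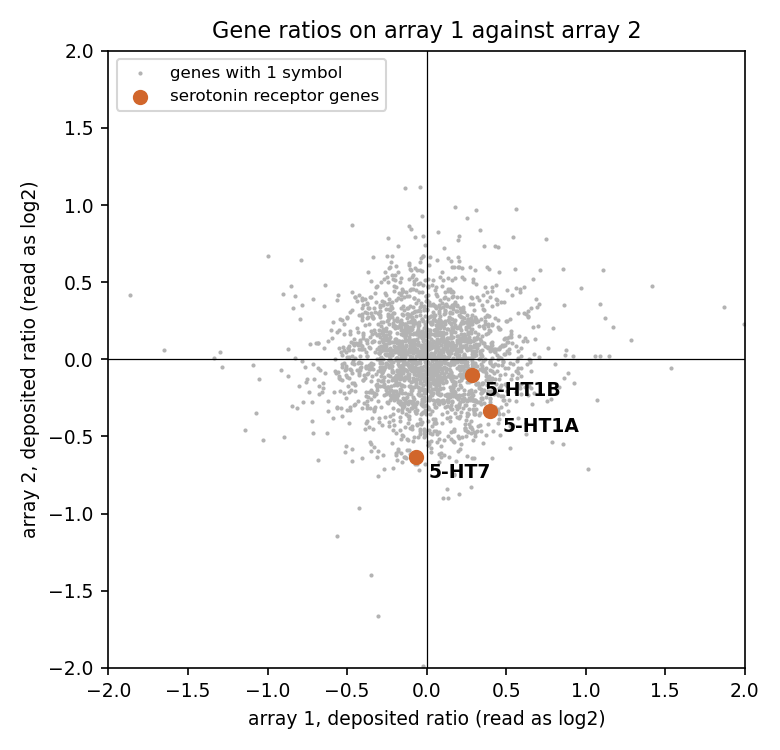
Deposited ratio of each gene with 1 symbol on array 1 (x axis) and array 2 (y axis), both read as log2, with the serotonin receptor genes in orange; 11 genes beyond 2 in size are not drawn. 5-HT1A and 5-HT1B lie to the right of 0 and below it, and 5-HT7 lies at the lower edge of the cloud at -0.63 on array 2.

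Of the 4 receptor clones, 3 had both spots positive on array 1 and both negative on array 2, a pattern looked for after it was seen. Of all named clones, 9.5% had it, and 18.8% were split by array in either direction. By spot number, these 3 clones, of 5-HT1A, 5-HT1B and 5-HT7 (clone 2), lay close together, within a run of 20 spots. 5-HT7 clone 1 lay elsewhere in this order, and coordinates on the array were not used. In that run all 6 receptor spots were positive on array 1 and all 6 negative on array 2, with medians of 0.30 and -0.33. Of the other 14 spots of the run, 8 were positive on array 1 and 8 negative on array 2, with medians of 0.07 and -0.07.

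The named clones beside the receptors had mixed signs. Cdk9, a kinase of transcription elongation, had the sign order of the receptors and larger values than 5-HT1A, at 0.86 and -0.55, and the chaperonin subunit gene CCT4 had it at 0.07 and -0.08. Hsp68, a heat-inducible chaperone of the Hsp70 family, lay between 5-HT1B and 5-HT1A in spot number. It was positive on both arrays, at 1.42 and 0.47, as was the chaperonin subunit gene CCT1, at 0.30 and 0.18. Nap1, a histone chaperone next to 5-HT7 clone 2 in spot number, was negative on both arrays, at -0.39 and -0.29. So was the general transcription factor gene TfIIB, at -0.45 and -0.29. The median of the spots around the receptor spots in this run, taken over a window of 100 to either side, was about -0.12 on array 1 and between 0.03 and 0.05 on array 2, of opposite sign to the receptor spots on each array. After this local median was subtracted, 5-HT1A was at 0.07 ± 0.63 (SD, n = 2) as deposited and 0.45 ± 0.10 with array 2 turned. In the same order of codings, 5-HT1B was at 0.13 ± 0.39 and 0.28 ± 0.18, and 5-HT7 at -0.33 ± 0.48 and 0.34 ± 0.46. No receptor gene was called in either coding. Among the receptor clones the sign pattern moved with spot number, whereas the other spots of the run had mixed signs. The dye of each extract changed between the arrays for every gene. The part of position and dye in the pattern was not tested.

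**Figure D4:**
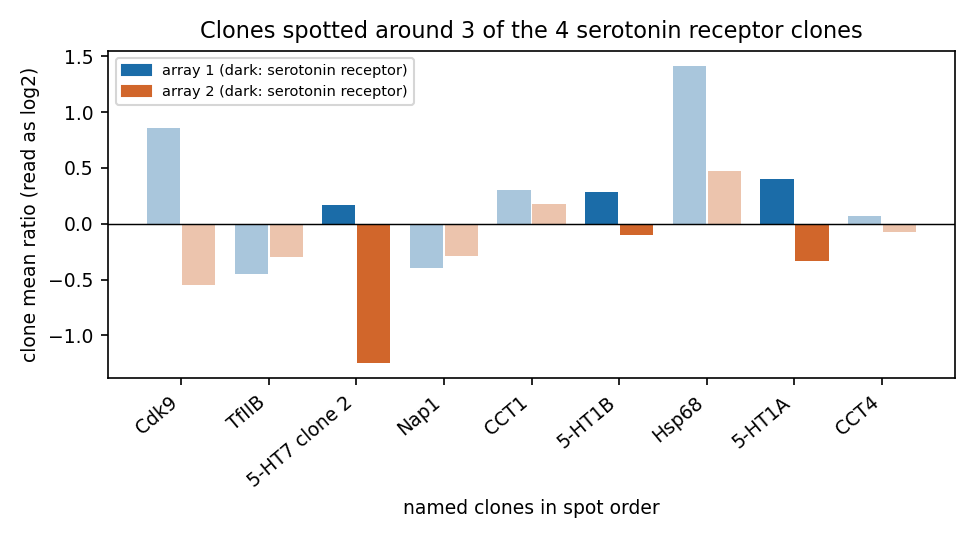
Mean ratio of the 2 spots of a clone (read as log2, y axis) for the named clones of the run of 20 spots in spot order (x axis), in blue for array 1 and orange for array 2, with serotonin receptor clones in dark shades and 1 clone without a symbol left out. The receptor bars point up on array 1 and down on array 2, as do those of Cdk9 and CCT4, while Hsp68 and CCT1 point up and TfIIB and Nap1 down on both arrays.

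The rest of the serotonin system was thinly covered by named clones. None of the other serotonin receptors (0 of 2 listed) and none of the genes for synthesis, transport or breakdown of serotonin (0 of 12) had a named clone of its own, so they were not analysed here. Of 17 receptors for dopamine, octopamine, tyramine, acetylcholine or histamine, 1 was measured. This was DopEcR, a receptor for dopamine and ecdysone, at 0.07 on array 1 and -0.21 on array 2. Its mean was -0.07 ± 0.20 (SD, n = 2) as deposited and 0.14 ± 0.10 with array 2 turned, and neither passed the test. DopEcR thus had the signs of 5-HT1A and 5-HT1B on each array, an order found in 581 of 2377 genes. Its size on array 2 lay between theirs.

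Of 34 listed G protein and second messenger genes, which carry the signal of these receptors, 10 were measured and 0 were called in either coding (0% of all genes). Of these, 3 were positive on both arrays, 3 negative on both and 4 of mixed sign, in deposited signs. The median mean was 0.02 as deposited and -0.14 with array 2 turned, against 0.007 and 0.002 over all genes. Before adjustment, 3 of the 10 had a limma p under 0.05 as deposited and 1 with array 2 turned, against 5.72% and 4% of all genes.

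The adenylyl cyclase gene Ac78C, whose product makes cyclic AMP, read 0.43 and 0.73, a mean of 0.58 ± 0.21 (SD, n = 2) as deposited (limma adjusted p = 0.508) and -0.15 ± 0.82 with array 2 turned. The phosphodiesterase gene dnc, whose product breaks cyclic AMP down, read 1.09 on array 1 and 0.02 on array 2, so its mean of 0.56 ± 0.76 (SD, n = 2) as deposited, and of 0.54 ± 0.79 with array 2 turned, came from array 1. Pka-C3, a catalytic subunit of the family of kinases that cyclic AMP activates, read -0.56 and -0.31 (-0.44 ± 0.18, SD, n = 2), and its relative Pka-C2 read -0.07 and -0.35 (-0.21 ± 0.20). In the turned coding the means of these kinase genes were -0.13 and 0.14. Crtc, a coactivator of the cyclic AMP response factor CREB, read 0.13 and 0.53 (0.33 ± 0.28, SD, n = 2, as deposited and -0.20 ± 0.47 turned). The RGS gene loco, which limits signalling by inhibitory G proteins, read -0.24 and 0.78 (0.27 ± 0.72, SD, n = 2), and was at -0.51 ± 0.38 with array 2 turned (limma adjusted p = 0.942). Plc21C, Galphaq and rut of this list had means near 0 as deposited because their arrays opposed each other. With array 2 turned they were at -0.39 ± 8.6e-05, -0.32 ± 0.04 and 0.27 ± 0.02 (SD, n = 2), and none was called. Of the list, rut alone was positive on array 1 and negative on array 2, at 0.28 and -0.26.

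Of 42 listed neuropeptide and other class A receptors, 8 were measured, 0 were called in either coding, and the median mean was 0.07 as deposited and -0.0003 with array 2 turned. As deposited, TrissinR, the receptor of the neuropeptide trissin, was at 0.30 ± 0.19 (SD, n = 2), and moody, a glial receptor of the blood-brain barrier, at 0.20 ± 0.14. The tachykinin receptor gene TkR99D was at 0.14 ± 0.28, the proctolin receptor gene Proc-R at 0.12 ± 0.10, and the opsin gene Rh7 at -0.07 ± 0.19. The short neuropeptide F receptor gene sNPF-R was at -0.07 ± 0.01, with -0.08 on array 1 and -0.06 on array 2. In the turned coding TrissinR changed sign, at -0.14 ± 0.42, and TkR99D was at 0.20 ± 0.19, moody at 0.10 ± 0.28, Proc-R at 0.07 ± 0.17, Rh7 at -0.13 ± 0.10 and sNPF-R at -0.01 ± 0.10. TkR99D alone of the 8 was positive on array 1 and negative on array 2, at 0.34 and -0.06. This order of signs was that of 5-HT1A and 5-HT1B, and 581 of all 2377 genes had it.

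**Figure D5:**
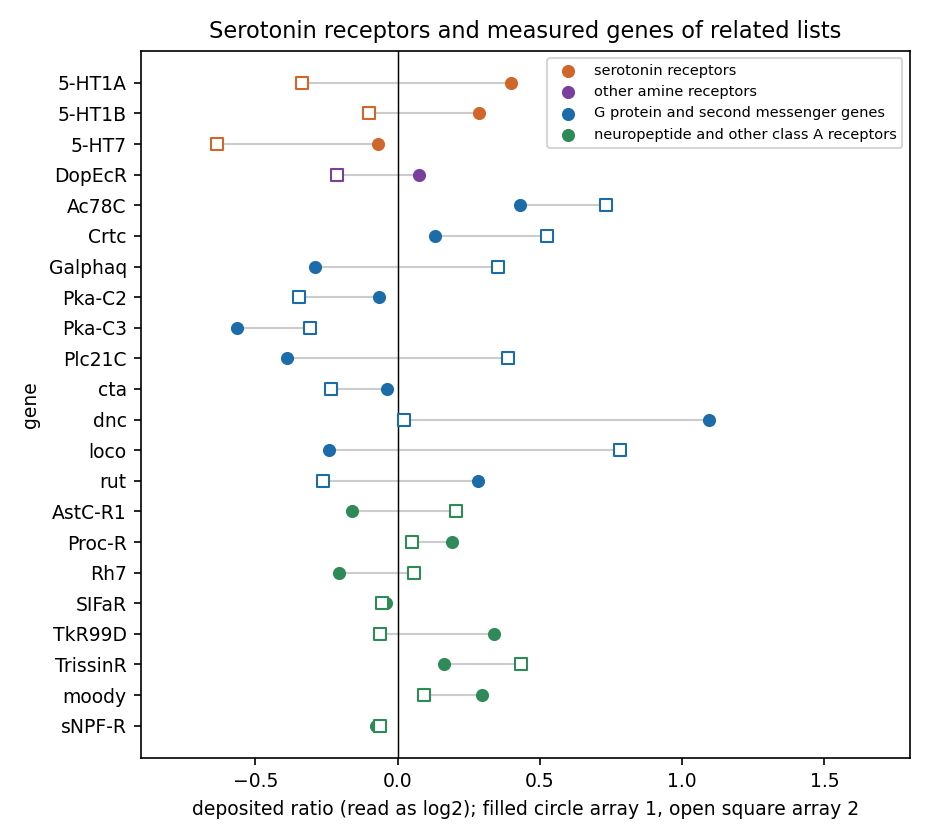
Deposited ratio (read as log2, x axis) on array 1 (filled circles) and array 2 (open squares) of the 3 serotonin receptor genes and the 19 measured genes of the related lists (y axis), coloured by list. The distance between the arrays, such as from 0.40 to -0.33 in 5-HT1A, is wide in many genes, and 6 of the 19 are positive on both arrays and 5 negative on both.

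Genes with the most similar pair of values were found by Euclidean distance over the 2 arrays, a measure that is the same in both codings. For 5-HT1A they were indra, CG4676 and Hrd3, whose product acts in degradation of proteins from the endoplasmic reticulum, at distances of 0.0292 to 0.0371. For 5-HT1B they were CG11168, CG31523 and Rabex-5, a regulator of endosomal traffic, at 0.00914 to 0.0187. For 5-HT7 they were the RNA helicase gene Rhau, CG12689 and the sodium/proton antiporter gene Nha2, at 0.0384 to 0.0463. Many genes lay as near, since 27 genes fell within 0.1 of 5-HT1A, 75 within 0.1 of 5-HT1B and 12 within 0.1 of 5-HT7.

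Markers of tissues gave 20 measured genes of 61 listed, and 0 were called in either coding. The RNA came from females, so the list for male glands and testis names no tissue of these flies. Of 10 neuronal markers 4 were measured, with medians of -0.09 on array 1 and 0.17 on array 2. Of these, nSyb and futsch were negative on array 1 and positive on array 2, cac was positive on both and nrv3 negative on both. Both measured glial markers were positive on both arrays, with medians of 0.34 and 0.13. The 5 muscle markers had medians of -0.47 and 0.12, the 3 fat body markers -0.02 and -0.40, the 3 markers of male glands and testis 0.16 and 0.33, and the 2 eye markers -0.21 and -0.003, and the ovary marker yl was at -0.09 and -0.18. Before adjustment, 5 of the 20 had a limma p under 0.05 as deposited, against 5.72% of all genes. They were 2 muscle genes, 1 fat body gene and 2 of the male list. The muscle pair went opposite ways, with means of 0.70 for Tm2 and -0.53 for TpnC73F. So did the pair of the male list, at 0.49 for Acp36DE and -0.42 for Mst84B. With array 2 turned, 2 of the 20 had a limma p under 0.05 before adjustment, against 4% of all genes. Both were muscle genes and negative (up at -0.45 and TpnC41C at -0.66). Of the other muscle markers in this coding, Tm2 went the other way at 0.58, while Act88F and TpnC73F were at -0.24 and -0.25. The part of a shift in tissue content in the receptor ratios was not tested.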

How the data were processed

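For each array the authors deposited a table of 16896 spot values, signed log ratios that were read here as log2; background correction, normalization, log base and direction are not given in these sources. Spots were named by the gene identifiers of the platform annotation: 5666 spots had 1 symbol, 152 several and 11078 none, and all 2377 genes matched RefSeq's current table. Adjacent spots were averaged into clones and clones into genes. The mean ratio was tested against 0 with limma 3.58.1 (R 4.3.3), lmFit and eBayes, with Benjamini-Hochberg adjustment over 2377 genes and a threshold of 0.05, once for each coding of array 2. The fit was tested on simulated data. The labels call the 2 arrays biological replicates; a dye effect could not be fitted beside the mean, and their number limits the precision. Spot intensities were not used here. Members, lists and tests were chosen with earlier results of these data known. Named genes were the 3 members, all measured serotonin and amine genes, and the 3 nearest genes to each member. Of each larger list, up to 6 were named by size of the mean as deposited. All 6 named neighbours in the run of spots and the marker genes named were added with their values in view. So were Plc21C, Galphaq and rut, which the rule for larger lists left out. Alternatives were other centring, scaling, spot summaries, filters, robust eBayes, duplicate spots kept, a natural-log reading and each array alone. Running all of these with array 2 turned, and the single clones and spot of 5-HT7, were added after seeing the data.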

Additional observations from a re-analysis of the deposited data

How the results depend on the processing

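No receptor gene passed a limma adjusted p of 0.05 under any alternative tried, in either coding of array 2. Starting from the values as deposited, 5-HT1A ran from 0.02 to 0.37 over 10 alternatives and 5-HT1B from 0.08 to 0.19 over 9. The upper ends of 0.37 and 0.19 were those of the turn of array 2. The other alternatives in these ranges reached at most 0.07 for 5-HT1A and 0.13 for 5-HT1B. 5-HT7 ran from -0.54 to 0.28 over 13, where the turn of array 2 gave the opposite sign (0.28) and the other alternatives kept its sign. With array 2 turned, 5-HT1A ran from 0.37 to 0.53 and 5-HT1B from 0.19 to 0.28, while 5-HT7 clone 1 alone, and with duplicate spots kept, gave -0.14 against 0.28. The filter on spots differing by over 0.5 removed 5-HT1B and 5-HT7 and left 1536 genes. Single arrays are not part of these ranges. Array 1 alone gave 0.40 for 5-HT1A, 0.28 for 5-HT1B and -0.07 for 5-HT7. Array 2 alone gave -0.33, -0.10 and -0.63 as deposited, and 0.33, 0.10 and 0.63 when turned. Over all genes limma called 8 (0 with array 2 turned) once clones with any spot beyond 3 in size were left out. It called 5 (3 with array 2 turned) under the filter on differing spots. None of these was a receptor, and 0 were called under the other settings. Over all settings and both codings, those at an unadjusted limma p under 0.05 ran from 58 of 1536 genes to 211 of 2833 clones. With one sign on both arrays, 3 genes were 1.5-fold or more from equality, and 5 with arrays scaled to a common spread, 36 if natural logs are assumed, 82 at the threshold of 0.322, 0 at 2-fold, and 113 to 146 on 1 array. None of the 19 related genes was called under any of these settings as deposited or with array 2 turned alone. The filter on differing spots kept 13 of the 19, so the rest were not tested there. For all these changes the cause was not tested. No paired analysis was possible because each deposited ratio is already a pair of extracts on 1 array. What spot brightness limits is unknown here.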
